A study of Rattus norvegicus with 6 samples.

Results

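The genes described here are the collagens and the enzymes and chaperones that process them, in rat cultures of olfactory ensheathing glia (OECs), which wrap the axons of the olfactory nerve. The rule that chose the genes was set with earlier results of these data known. Genes were chosen by name: every collagen chain gene (Col, a number, a and a number), the lysyl oxidases Lox, Loxl1, Loxl2 and Loxl3, the lysyl hydroxylases Plod1, Plod2 and Plod3, the prolyl 4-hydroxylases P4ha1 and P4ha2, the prolyl 3-hydroxylase family (P3h), Pcolce, Serpinh1 and Bmp1. This gave 57 genes, 42 collagen chains and 15 processing genes, among the 14372 genes with a single symbol on the arrays. Total RNA of 3 populations was hybridised to Affymetrix arrays of the types U34A and RAE2.0, with 1 array per population on each type. TEG3 is a clonal line that was derived from OECs of Wistar rats aged 60 days by transfection of the SV40 large T antigen, so it stands for 1 clone. OEC Lp is a primary OEC culture of Wistar rats aged 21 days that was passaged beyond 50 population doublings. OEC Ep is the short-term primary culture of the same tissue and age, used after less than 3 doublings. All came from the olfactory nerve layer of both bulbs. The shared medium was DMEM supplemented with 3% serum, pituitary extract (20 µg/ml) and forskolin (2 µM). The design text speaks of 2 RNA pools per population, each from 3 cultures. Which pool went on which array is not given in the sources used here, so p-values may measure technical spread alone.

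Collagens are triple helices of alpha chains, in which glycine recurs at regular steps. Inside the endoplasmic reticulum prolyl 4-hydroxylases stabilise the helix, lysyl hydroxylases prepare the lysines for cross-linking, prolyl 3-hydroxylases modify single prolines, and the chaperone HSP47, encoded by Serpinh1, binds the folded procollagen. Outside the cell BMP1 removes the C-propeptide, helped by the enhancer protein of Pcolce, and lysyl oxidases cross-link the fibrils. Fibrillar collagens (types I, II, III, V, XI, XXIV and XXVII) form the fibres of connective tissue, types XII, XIV and others decorate them, and type IV forms the network of the basement membrane, which glia of peripheral nerves lay down around their axons.

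Signals are the authors' MAS5 intensities, scaled here to a common level within each array type. A gene's value is the geometric mean over those of its probe sets above the floor in at least 1 population, and a signal under the 40th percentile of the array type (128 on U34A, 168 on RAE2.0) was set to that floor. Where the lower population sits at the floor, the fold on that array type is a bound and is written "at least". A fold from the fit is the mean of both types with such signals left at the floor. Where a probe set sits at the floor in the lower population alone, the fitted fold is a lower limit too, although it is printed as a plain number. Signals are compared between populations and never between genes. From 59.1 to 61.8% of probe sets exceeded the floor on every array. The ratio of GAPDH control probe sets at the 3' end to those at the 5' end was 1.48 in TEG3, 1.47 in OEC Lp and 1.86 in OEC Ep on U34A, and between 0.981 and 1.02 on RAE2.0. Markers of OECs and Schwann cells went against the labels of both long-term populations: on RAE2.0, 3 of 14 such markers exceeded the floor in TEG3 and 4 in OEC Lp, against all 14 in OEC Ep (on U34A 11 and 9 of 12, against 12). Their summed signal on RAE2.0 was 5026 in TEG3 and 5597 in OEC Lp, against 145381 in OEC Ep, and on U34A it was 6868 and 6421 against 42897. In all such sums here, a marker at the floor in 1 population but above it in another adds the floor value. Gfap, Ngfr, S100b and Erbb3 were at the floor in both long-term populations on RAE2.0. Microglia and macrophage markers had summed signals of 3285 in TEG3, 5224 in OEC Lp and 68235 in OEC Ep on RAE2.0, with 4, 3 and 14 of 16 above the floor, and of 1687, 1620 and 27025 on U34A (3, 5 and 8 of 11). Fibroblast and meningeal markers other than collagens had 19238, 92655 and 81249 in the same order on RAE2.0 (11, 14 and 12 of 20 above the floor) and 20051, 28295 and 38774 on U34A (6, 9 and 11 of 15). S100a4 alone read 41223 of the OEC Ep sum on RAE2.0. In OEC Lp against OEC Ep there, 9 of 17 such markers were at least 2-fold higher and 4 at least 2-fold lower (10.4% of all genes each way). By limma, Gjb2 and Prrx1 were called higher there over both types, and S100a4 and Thy1 lower (2.11% and 4.02% of all genes). Contractile markers had 12753 in TEG3, 1932 in OEC Lp and 22250 in OEC Ep on RAE2.0 (6, 2 and 8 of 10) and 6081, 9148 and 12767 on U34A (4, 4 and 5 of 7). Of the OEC Lp sum on U34A, Tagln alone read 8153, but on RAE2.0 it was at the floor in OEC Lp. Endothelial markers had 1449, 2350 and 1291 on RAE2.0 (3, 4 and 4 of 10) and 906, 514 and 541 on U34A (3, 0 and 1 of 6), with Kdr at the floor on all 6 arrays and Emcn and Tie1 on all 3 RAE2.0 arrays. The OEC Lp sum of 514 on U34A thus holds floor values alone. The part of these marker differences in the collagen results below was not tested, and in RNA of whole cultures fewer cells of a type and less RNA per cell cannot be told apart.

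Of the 57 genes, 21 of 24 on U34A and 45 of 56 on RAE2.0 had a probe set above the floor in at least 1 population, and 20 did so on both types. These 20 were tested with limma, within a fit to all 3131 genes on both types. In OEC Lp against OEC Ep 5 of the 20 passed an adjusted p of 0.05, while 6.13% of all genes did. Col3a1, Lox and Pcolce rose (3, where 2.11% of all genes were called higher) and Col11a1 and Col12a1 fell (2, where 4.02% were called lower). In TEG3 against OEC Ep 4 of 20 passed, with 4.34% of all genes: Lox and Plod2 rose (0.639% of all genes called higher), and Col12a1 and Loxl1 fell (3.7% called lower). In TEG3 against OEC Lp Loxl1 alone passed, as a fall, with 1.21% of all genes called and 1.02% called lower. The first 2 comparisons share the OEC Ep arrays and the last 2 the TEG3 arrays. All 10 calls had the same direction on both array types. None held when any 1 of the 6 arrays was left out: limma then gave 0 calls each time, although every direction was kept. Unadjusted p-values under 0.05 then numbered 5 to 10, 7 to 10 and 4 to 7 in the 3 comparisons in that order, where the share of all genes was 13.1 to 16.9%, 13.2 to 19.9% and 10.2 to 12.0%. With all arrays they numbered 10, 9 and 5, with 19.5%, 21.7% and 15.4% of all genes. None of the 10 calls passed without the floor, without the filter on dim probe sets, with the 4 arrays compared alone or without the array type as a block. Leaving out an array of the population not compared gave the same result as those 4 arrays, so it is no separate check. Each run without an array also has fewer residual degrees of freedom than the 2 of the full fit. With the floor at the 20th percentile, 6 did not pass: Col3a1 and Pcolce in OEC Lp against OEC Ep (adjusted p = 0.0551 and 0.0586), Lox, Loxl1 and Plod2 in TEG3 against OEC Ep (adjusted p = 0.0641, 0.0565 and 0.082) and Loxl1 in TEG3 against OEC Lp (adjusted p = 0.075). Over the 20 genes the median log2 fold was -0.02 for OEC Lp over OEC Ep, -0.32 for TEG3 over OEC Ep and -0.13 for TEG3 over OEC Lp, beside 0.11, 0.04 and -0.01 over all genes tested.

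RAE2.0 covers more of the family, with 1 array per population and no test. There 9 of the 45 measured genes were at least 2-fold higher and 16 at least 2-fold lower in OEC Lp than in OEC Ep, where 20.8% of all genes differed by that margin, 10.4% higher and 10.4% lower. In TEG3 against OEC Ep 5 were higher and 21 lower (22.7% of all genes in all, 12.1% higher and 10.6% lower). In TEG3 against OEC Lp 3 were higher and 10 lower (18.3% of all genes, 9.63% higher and 8.66% lower). Of the 45 genes 33 exceeded the floor in all 3 populations, 7 in 2 and 5 in only 1. For these last 12 a difference follows in part from the filter.

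Col1a2 had the largest fitted fold of the 20 genes, in TEG3. It encodes the alpha 2 chain of type I collagen, which joins alpha 1 chains from Col1a1 in the common form of the fibre. On RAE2.0 its 2 probe sets read 28 and 40 in TEG3, below the floor, 35120 and 36969 in OEC Lp and 19536 and 16675 in OEC Ep. TEG3 was thus at least 107-fold below OEC Ep and at least 214-fold below OEC Lp on that type. The single U34A probe set, of a kind that Affymetrix marks as shared between transcripts, read 1969 in TEG3, 21071 in OEC Lp and 20610 in OEC Ep, so TEG3 was 10.5-fold below OEC Ep and 10.7-fold below OEC Lp. The same mark is on U34A probe sets of Col1a1, Col3a1, Col10a1, Lox, Loxl1 and Pcolce, and on the brighter RAE2.0 probe set of Serpinh1. For Col1a2, TEG3 was the low population on both types, and both primary cultures lay far above it. The types differed in the size of the fold, and the limma test missed the threshold, with TEG3 in the fit 33.5-fold below OEC Ep (log2 fold -5.07 ± 1.01 SE, limma adjusted p = 0.058) and 47.9-fold below OEC Lp (-5.58 ± 1.01, adjusted p = 0.0745). With the brightest probe set per gene in place of the mean, the difference from OEC Ep passed (log2 fold -5.12, adjusted p = 0.0458). It did not pass without a floor (limma adjusted p = 0.178) or with the floor at the 20th percentile (adjusted p = 0.117). In the fit as reported, OEC Lp against OEC Ep gave 0.51 ± 1.01 (adjusted p = 0.824).

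The promoter of Col1a2 is shown because its gene was below the floor in TEG3 on RAE2.0. It runs from 250 bases before to 50 bases after the annotated start, on the plus strand of GRCr8 at chr4:33518307-33518606 (RefSeq). Capitals mark matches on either strand to the CCAAT box (CCAAT or ATTGG), the GC box (GGGCGG or CCGCCC) and the TATA box (TATAAA or TTTATA).
Col1a2: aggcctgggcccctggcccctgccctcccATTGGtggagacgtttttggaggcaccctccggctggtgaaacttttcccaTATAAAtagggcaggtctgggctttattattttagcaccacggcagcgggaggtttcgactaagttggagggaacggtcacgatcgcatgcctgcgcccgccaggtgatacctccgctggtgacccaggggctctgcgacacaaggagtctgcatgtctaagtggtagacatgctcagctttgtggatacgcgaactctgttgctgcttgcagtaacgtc
It holds an inverted CCAAT box at position -221 and a TATA box at -170, counted from the annotated start, and no GC box. Among all 33469 promoter windows of this length 37.5% hold a CCAAT box, 14.2% a TATA box and 33.1% a GC box. Of the 57 genes 45 had an entry in the RefSeq promoter table, and 10 of these hold a CCAAT box, 4 a TATA box and 28 a GC box. The match describes the letters and not binding in these cells.

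Its partner Col1a1 lay above the floor in all 3 populations. On U34A the mean of 4 probe sets was 30127 in TEG3, 15800 in OEC Lp and 38302 in OEC Ep. On RAE2.0 the mean of 2 was 11696, 14368 and 31148. OEC Ep was the highest on both types, and TEG3 and OEC Lp changed places between them. The log2 fold was -0.88 ± 0.404 in TEG3 (adjusted p = 0.283) and -1.20 ± 0.404 in OEC Lp (adjusted p = 0.19), both relative to OEC Ep. Between TEG3 and OEC Lp it was 0.32 ± 0.404 (adjusted p = 0.789).

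Col3a1, the chain of type III collagen found in soft connective tissue, was highest in OEC Lp. On U34A it read 7841 in TEG3, 39993 in OEC Lp and 6684 in OEC Ep, and on RAE2.0 24383, 78964 and 21808. OEC Lp stood above both other populations on both types. Against OEC Ep it rose 4.65-fold in OEC Lp (log2 fold 2.22 ± 0.334, adjusted p = 0.0234). TEG3 had a log2 fold of -2.02 ± 0.334 against OEC Lp (adjusted p = 0.0607; adjusted p = 0.0336 among genes above the floor on all arrays) and of 0.20 ± 0.334 against OEC Ep (adjusted p = 0.785). Col5a2, a chain of the type V collagen that helps start fibrils, is the next gene to Col3a1 on chromosome 9 in the reference table, and its values ran the other way. It read 12379 in TEG3, 11599 in OEC Lp and 30419 in OEC Ep on U34A and 22298, 18489 and 41862 on RAE2.0. Its log2 fold was -1.10 ± 0.3 in TEG3 (adjusted p = 0.117) and -1.28 ± 0.3 in OEC Lp (adjusted p = 0.0776) against OEC Ep. Col5a1, the other common type V chain, read 2166, 930 and 2472 on U34A and 996, 1261 and 2721 on RAE2.0 in the same order. Its log2 fold against OEC Ep was -0.82 ± 0.454 in TEG3 (adjusted p = 0.363) and -1.26 ± 0.454 in OEC Lp (adjusted p = 0.211). Between TEG3 and OEC Lp the log2 fold was 0.18 ± 0.3 for Col5a2 (adjusted p = 0.836) and 0.44 ± 0.454 for Col5a1 (adjusted p = 0.723). Another type V chain, Col5a3, was on RAE2.0 alone, with signals of 248 in TEG3, 187 in OEC Lp and 5399 in OEC Ep, so 21.8-fold and 28.9-fold lower in the long-term populations.

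**Figure D1:**
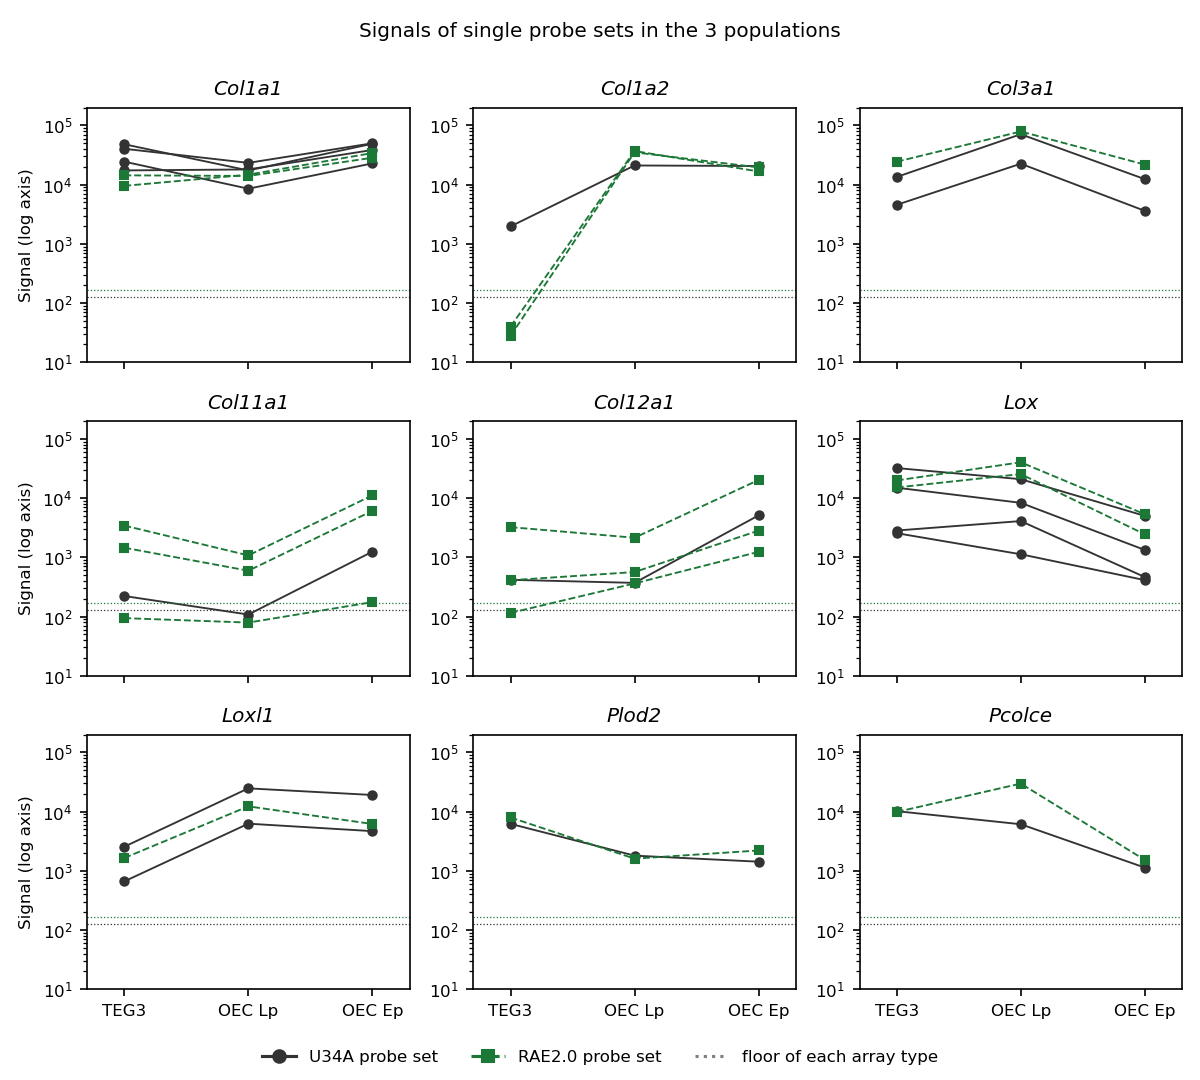
Signals of single probe sets on U34A (circles, solid lines) and RAE2.0 (squares, dashed lines) in TEG3, OEC Lp and OEC Ep, on a log axis, with dotted lines at the floors of 128 and 168. Col1a2 drops to 28 and 40 in TEG3 on RAE2.0, Col3a1 peaks in OEC Lp, and Loxl1 is low and Plod2 high in TEG3 on every probe set.

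Col11a1, the chain of type XI collagen that sits in the core of fibrils with type V, fell in OEC Lp against OEC Ep, 6.82-fold in the fit (log2 fold -2.77 ± 0.399, adjusted p = 0.0214), from at least 9.70-fold on U34A and at least 4.80-fold on RAE2.0. On U34A it read 222 in TEG3, the floor in OEC Lp and 1245 in OEC Ep. On RAE2.0 it read 943, 476 and 2281. Among its RAE2.0 probe sets 1 read only 175 in OEC Ep and was at the floor in TEG3 and OEC Lp. The others read 594 and 1078 in OEC Lp and 6085 and 11139 in OEC Ep. Both types placed OEC Ep highest and OEC Lp lowest. TEG3 had -1.88 ± 0.399 against OEC Ep (adjusted p = 0.0676) and 0.89 ± 0.399 against OEC Lp (adjusted p = 0.375). The difference from OEC Ep passed with the brightest probe set (log2 fold -2.09, limma adjusted p = 0.0377). It did not pass without a floor (adjusted p = 0.115) or with the floor at the 20th percentile (adjusted p = 0.091). Col27a1, a fibrillar chain of cartilage, was at the floor in TEG3, 231 in OEC Lp and 1321 in OEC Ep on RAE2.0. Col2a1, the chain of cartilage fibrils, reached 265 in OEC Lp on 1 of its 3 RAE2.0 probe sets, and all its other signals, both U34A probe sets included, were below the floor.

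Col12a1, a chain that decorates type I fibrils, was lower in both long-term populations. It read 417 in TEG3, 370 in OEC Lp and 5111 in OEC Ep on U34A, and 606, 759 and 4135 on RAE2.0. OEC Ep lay above both others on all 4 probe sets. Against OEC Ep it fell 9.14-fold in the fit in TEG3 (log2 fold -3.19 ± 0.407, adjusted p = 0.019), from 12.3-fold on U34A and at least 6.82-fold on RAE2.0, and 8.67-fold in OEC Lp (-3.12 ± 0.407, adjusted p = 0.0162), while TEG3 against OEC Lp had -0.08 ± 0.407 (adjusted p = 0.968, with a 95% interval from -1.09 to 0.94). Other fibril-associated chains were measured on RAE2.0 alone. Col14a1, of the same subfamily, read 403 in TEG3, the floor in OEC Lp and 2249 in OEC Ep, which is 5.58-fold lower in TEG3 and at least 13.4-fold lower in OEC Lp. Col9a3, a chain of type IX collagen, was at the floor in both long-term populations and 1672 in OEC Ep, at least 9.95-fold higher there. Col9a2 read 377, 398 and 762, and Col16a1 read 1183, 2056 and 3150 in TEG3, OEC Lp and OEC Ep. For each of these genes OEC Ep had the highest signal. Col9a3 passed the filter through OEC Ep alone, so for it this order was fixed by the filter.

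Among basement membrane chains Col4a1 and Col4a2, which are wound together into the widespread form of type IV collagen, were measured on RAE2.0 alone, and both were lowest in TEG3 and highest in OEC Ep. Col4a1 read 3982 in TEG3, 7481 in OEC Lp and 22804 in OEC Ep, and its 2 probe sets kept that order. Col4a2 read 1621, 4536 and 7987. TEG3 was 5.73-fold (Col4a1) and 4.93-fold (Col4a2) below OEC Ep, and OEC Lp 3.05-fold and 1.76-fold below it. As for all genes on RAE2.0 alone, this rests on 1 array per population.

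The genes lie next to each other on chromosome 16 and are read in opposite directions from a shared promoter, and for that reason their promoter windows are shown. In GRCr8 the RefSeq starts are 77 bases apart and the windows share 176 bases. That of Col4a1 is at chr16:84885347-84885646 on the plus strand and that of Col4a2 at chr16:84885471-84885770 on the minus strand, each printed 5' to 3' on its own strand with the same motifs in capitals.
Col4a1: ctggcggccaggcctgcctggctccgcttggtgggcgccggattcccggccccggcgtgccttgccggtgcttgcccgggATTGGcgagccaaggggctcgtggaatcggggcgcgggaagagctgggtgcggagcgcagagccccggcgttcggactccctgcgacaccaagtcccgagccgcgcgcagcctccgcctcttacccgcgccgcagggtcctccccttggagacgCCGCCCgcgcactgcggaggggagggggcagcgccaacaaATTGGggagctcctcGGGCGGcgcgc
Col4a2: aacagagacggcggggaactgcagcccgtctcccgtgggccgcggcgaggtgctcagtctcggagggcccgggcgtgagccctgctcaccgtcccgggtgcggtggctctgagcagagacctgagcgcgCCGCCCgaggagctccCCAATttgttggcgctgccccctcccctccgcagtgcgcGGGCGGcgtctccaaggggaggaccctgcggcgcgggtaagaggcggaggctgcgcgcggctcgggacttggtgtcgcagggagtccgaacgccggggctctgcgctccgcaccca
Both hold a pair of GC boxes, which are the same letters read from either side, and neither holds a TATA box. The Col4a1 window has CCAAT boxes at -170 and 25, and the second of these is the one at -105 in the Col4a2 window. The windows are 75 and 73.7% G or C, against 57% for the Col1a2 window.

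Col4a5 and Col4a6, the chains of another form of type IV collagen, had a different order. Col4a5 read 452 in TEG3, 851 in OEC Lp and 513 in OEC Ep on U34A and 3854, 6468 and 1643 on RAE2.0, so OEC Lp was highest on both. Its log2 fold in OEC Lp against OEC Ep was 1.35 ± 0.436 (adjusted p = 0.172), and in TEG3 against OEC Ep it was 0.52 ± 0.436 (adjusted p = 0.534). Col4a6 read 246 in TEG3 and 380 in OEC Lp on RAE2.0 and was at the floor in OEC Ep. Col18a1 and Col15a1 encode the proteoglycan-like collagens of basement membranes. Col18a1 read 256, 611 and 1302 on RAE2.0 in TEG3, OEC Lp and OEC Ep. Col15a1 had log2 folds of 0.37 in TEG3 and -0.76 in OEC Lp against OEC Ep (adjusted p = 0.611 and 0.33). Col7a1, the anchoring fibril of skin, read 178 in TEG3, the floor in OEC Lp and 1886 in OEC Ep.

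Type VIII collagen forms the sheet-like network below the corneal endothelium and around vessels. Col8a2 read 3427 in TEG3, 13493 in OEC Lp and 394 in OEC Ep on RAE2.0, 8.70-fold and 34.2-fold higher in the long-term populations, and was the only gene measured on that type alone with a higher signal in both by at least 4-fold. Its partner Col8a1 read 864, 8696 and 2118 on RAE2.0 but 488, 287 and 504 on U34A. The types thus placed OEC Lp highest and lowest, and no comparison passed (adjusted p from 0.598 to 0.774). Of the type VI chains, which build beaded filaments around cells, Col6a1 read 504, 523 and 1304 on RAE2.0 in TEG3, OEC Lp and OEC Ep, and Col6a3 was at the floor in the first 2 and 414 in OEC Ep. Because Col6a3 passed the filter through OEC Ep alone, its place as highest there was fixed by the filter. Col6a2 read 255, 496 and 231, so its order differed from that of Col6a1. Col26a1, on both types, had log2 folds from -0.57 to 0.70 (adjusted p from 0.571 to 0.935).

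Of the hydroxylases and the chaperone, Plod1, Plod2, Plod3, P4ha1, P3h4 and Serpinh1 were tested on both types. Only 1 gene passed, in 1 comparison, TEG3 against OEC Ep, where 4.34% of all genes were called and 0.639% called higher. Plod2, the lysyl hydroxylase that acts on the telopeptides where cross-links form, was high in TEG3, with 6210 in TEG3, 1804 in OEC Lp and 1426 in OEC Ep on U34A and 7958, 1604 and 2205 on RAE2.0. TEG3 stood above both primary cultures on both types. It rose 3.96-fold in TEG3 against OEC Ep (log2 fold 1.99 ± 0.336, adjusted p = 0.0401), had 2.05 ± 0.336 against OEC Lp (adjusted p = 0.0594; 0.0328 among genes above the floor on all arrays), and -0.06 ± 0.336 in OEC Lp against OEC Ep (adjusted p = 0.948). Plod1, which acts on the helical part of the chain, read 1748 in TEG3, 1838 in OEC Lp and 5964 in OEC Ep on U34A and 3353, 8041 and 13756 on RAE2.0. OEC Ep was highest on both. Its log2 fold against OEC Ep was -1.90 ± 0.391 in TEG3 (limma adjusted p = 0.0607). In OEC Lp it was -1.24 ± 0.391 (adjusted p = 0.166). The TEG3 value passed among genes above the floor on all arrays (adjusted p = 0.0445). It did not pass without a floor or with the floor at the 20th percentile. TEG3 over OEC Lp gave -0.67 ± 0.391 (adjusted p = 0.505).

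Serpinh1, P4ha1, Plod3 and P3h4 passed in no comparison. Their 12 log2 folds over the 3 comparisons ran from -0.43 to 0.62 (adjusted p from 0.402 to 0.984), with 95% intervals between -1.21 and 1.55. Serpinh1 read 3651 in TEG3, 4614 in OEC Lp and 4746 in OEC Ep on U34A. On RAE2.0 its probe sets read 22358, 31597 and 30968, and 193, 283 and 216, in that order, so each spans under 2-fold. P4ha1, the catalytic subunit of prolyl 4-hydroxylase, read 3192, 1430 and 1727 on U34A and 5143, 5038 and 4049 on RAE2.0. Its sister P4ha2 read 1007, 1813 and 874 on RAE2.0. The prolyl 3-hydroxylase gene P3h1 read 1658, 2274 and 1825 there, and P3h3 read 640, 624 and 1448.

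Pcolce, whose protein speeds the removal of the C-propeptide, was lowest in OEC Ep. It read 10172 in TEG3, 6117 in OEC Lp and 1133 in OEC Ep on U34A and 9869, 29722 and 1527 on RAE2.0. Both long-term populations were above OEC Ep on both types, and their own order changed between the types. It rose 10.3-fold in OEC Lp (log2 fold 3.36 ± 0.595, adjusted p = 0.0349), and TEG3 had 2.93 ± 0.595 (adjusted p = 0.0596), each against OEC Ep. The TEG3 value passed with quantile normalization (limma adjusted p = 0.0455) and among genes above the floor on all arrays (adjusted p = 0.0361). It did not pass without a floor or with the floor at the 20th percentile. TEG3 over OEC Lp gave -0.43 ± 0.595 (adjusted p = 0.813). Bmp1, the protease it assists, was measured on RAE2.0 alone and read 674 in TEG3, 762 in OEC Lp and 919 in OEC Ep, at most 1.36-fold apart.

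The lysyl oxidases differed from one another. Lox, the founding member, read 7689 in TEG3, 5321 in OEC Lp and 1063 in OEC Ep on U34A and 17343, 32045 and 3616 on RAE2.0. OEC Ep was the lowest population on all 6 probe sets. It rose 5.89-fold in TEG3 (log2 fold 2.56 ± 0.417, adjusted p = 0.0372; 2.29 and 0.0524, not passing, with the brightest probe set) and 6.66-fold in OEC Lp (2.74 ± 0.417, adjusted p = 0.0236) against OEC Ep. TEG3 against OEC Lp gave -0.18 ± 0.417 (adjusted p = 0.897, 95% interval from -1.22 to 0.86). Loxl1, known in mice for its part in elastic fibres, was low in TEG3 alone, with 1301 in TEG3, 12429 in OEC Lp and 9450 in OEC Ep on U34A and 1647, 12263 and 6177 on RAE2.0. It fell 5.22-fold in TEG3 against OEC Ep (log2 fold -2.38 ± 0.353, adjusted p = 0.0288) and 8.43-fold against OEC Lp (-3.08 ± 0.353, adjusted p = 0.0378), while OEC Lp against OEC Ep had 0.69 ± 0.353 (adjusted p = 0.365). Loxl2, which cross-links type IV collagen, read 2171, 911 and 3817 on RAE2.0 in TEG3, OEC Lp and OEC Ep, lowest in OEC Lp by 4.19-fold against OEC Ep. Loxl3 read 943, 2042 and 1246.

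**Figure D2:**
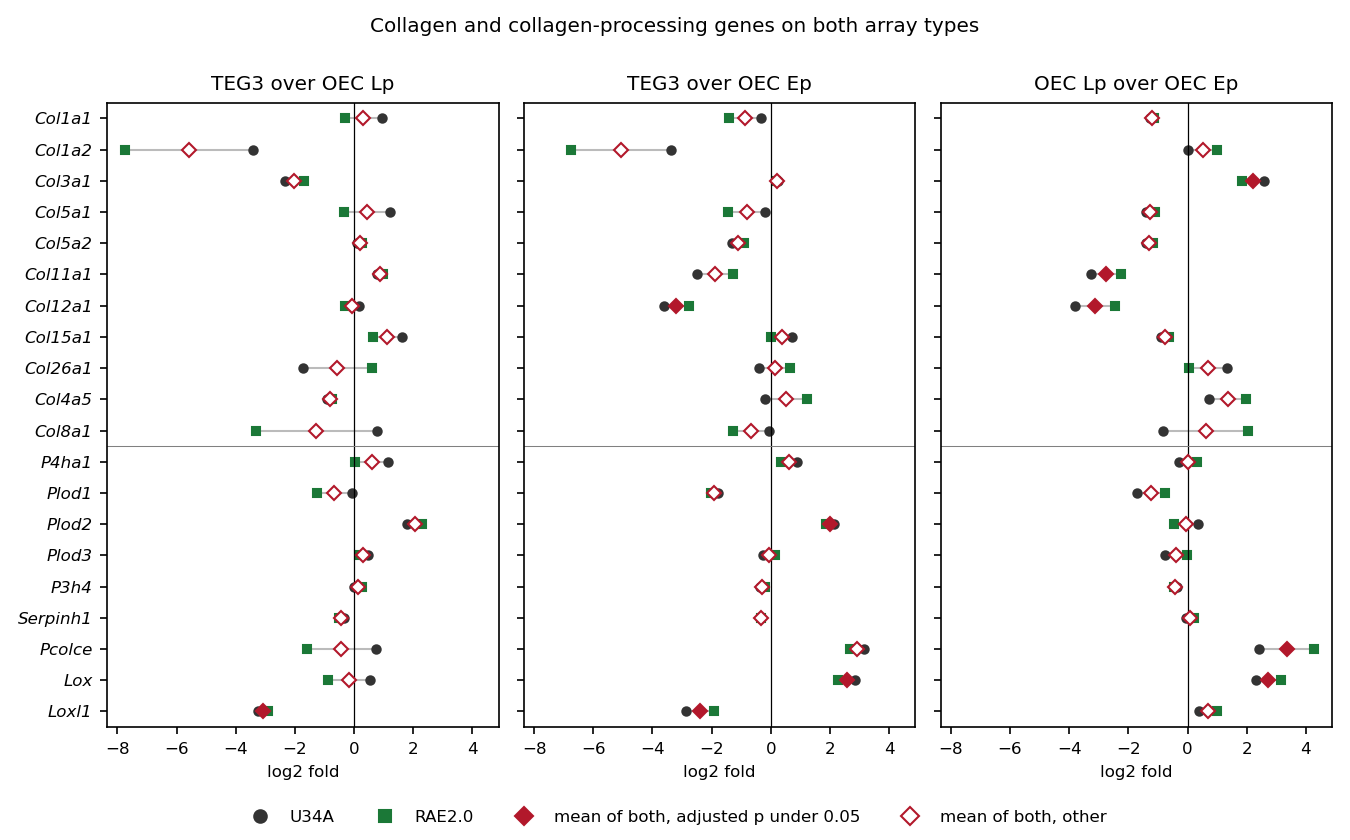
Log2 folds of the 20 genes on both array types, with collagens above the line and processing genes below it, for TEG3 over OEC Lp, TEG3 over OEC Ep and OEC Lp over OEC Ep. Circles are U34A, squares RAE2.0 and diamonds their mean, filled where the limma adjusted p was under 0.05 (1, 4 and 5 genes); Col1a2 has the widest gap between the types in both TEG3 comparisons.

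**Figure D3:**
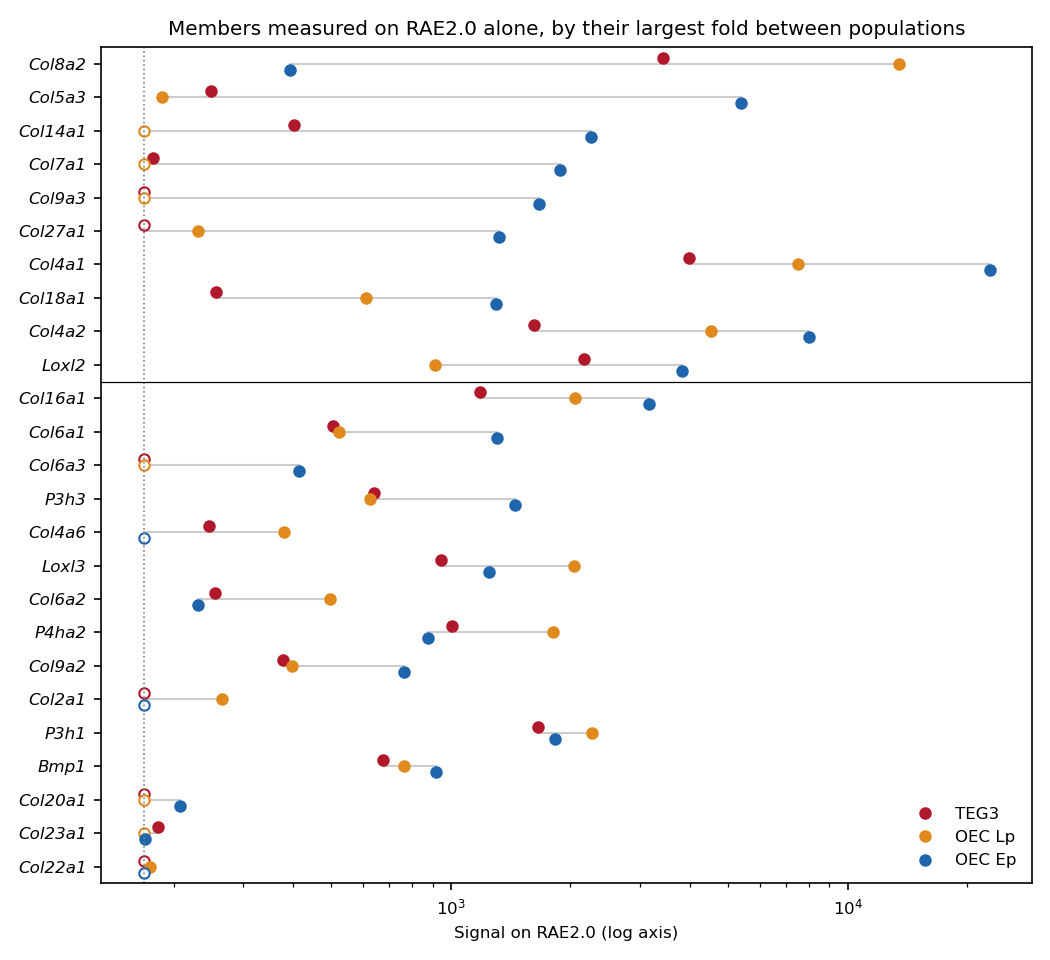
Signals on RAE2.0 (log axis) of the 25 genes measured on that type but not tested on both, sorted by their largest fold between populations. Open circles are at the floor of 168 (dotted line), and the solid line separates the 10 genes at least 4-fold apart, from Col8a2 to Loxl2, from the other 15.

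The plot of genes measured on RAE2.0 alone shows where the remaining family members lie. Of these 25 genes 10 were at least 4-fold apart between any 2 populations, where 9.15% of all 8411 RAE2.0 genes not tested on both types were. OEC Ep was the highest of the 3 for 9 of the 10, and for 45.8% of all genes that far apart. Of the 9, Col14a1, Col7a1, Col9a3 and Col27a1 were at the floor in 1 or 2 populations. Col9a3 passed the filter through OEC Ep alone, which fixed that it was highest there. The other 15 had largest folds from 1.04 to 2.66, with Col20a1 (1.24), Col23a1 (1.09) and Col22a1 (1.04) at the low end, each near the floor. Col10a1, a collagen of hypertrophic cartilage, exceeded the floor on U34A alone, with 316 in TEG3, 251 in OEC Lp and 257 in OEC Ep. That was 1 probe set of the kind marked as shared between transcripts. Another on U34A read 23, 14 and 70 and that on RAE2.0 21, 158 and 47, all below the floor. A further 11 genes (Col4a3, Col4a4, Col6a5, Col6a6, Col9a1, Col11a2, Col13a1, Col17a1, Col19a1, Col24a1 and Col25a1) had no probe set above the floor on either type, with signals of at most 151, so differences among them were not detectable.

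Other genes of the collagen pathway were taken from lists written with earlier results of these data known. Of 24 further maturation and export genes 6 were on both types and 0 passed limma in any comparison at an adjusted p of 0.05, while 2 had an unadjusted p under 0.05 in TEG3 against OEC Ep (21.7% of all genes) and 0 in the others. Of the 2, Sparc, a collagen-binding glycoprotein, had a log2 fold of -1.56 ± 0.342 (adjusted p = 0.0733) and Furin, a proprotein convertase, one of -1.52 ± 0.378 (adjusted p = 0.0988). Of 8 tested fibril partners Bgn, the proteoglycan biglycan, rose 3.53-fold in OEC Lp against OEC Ep (adjusted p = 0.0491), Omd, osteomodulin, rose 22.6-fold in the fit (adjusted p = 0.0191) and Postn, periostin, fell 129-fold (adjusted p = 0.00469). In TEG3 Postn fell 197-fold against OEC Ep (adjusted p = 0.00338), and Omd fell 24.1-fold against OEC Lp (adjusted p = 0.0451). Among 5 tested receptors Itga1, the alpha 1 integrin subunit that binds collagen, fell 11.2-fold in TEG3 (adjusted p = 0.0281) and 25.5-fold in OEC Lp (adjusted p = 0.0108) against OEC Ep. Cd44, a receptor for hyaluronan and collagen, gave log2 folds of -2.04 and -1.83 there (adjusted p = 0.106 and 0.134). For the discoidin receptor gene Ddr2 they were 1.08 and 1.55 (adjusted p = 0.255 and 0.144). Of 7 tested collagen-degrading proteases Mmp3, stromelysin, fell 12.5-fold in OEC Lp against OEC Ep (adjusted p = 0.0411), Mmp2, gelatinase A, had a log2 fold of -1.90 there (adjusted p = 0.0868), and no other gene passed. Among 10 tested regulators of collagen transcription Prrx1, a mesenchymal homeobox gene, rose 3.75-fold in OEC Lp against OEC Ep (adjusted p = 0.0316), while Tgfb3 fell 3.48-fold (adjusted p = 0.0335) and Ets1 3.25-fold (adjusted p = 0.0384); in the TEG3 comparisons 0 of the 10 passed limma, and 3 had an unadjusted p under 0.05 in each, where 21.7% of all genes did against OEC Ep and 15.4% against OEC Lp. Beside these calls, 2.11% of all genes were called higher and 4.02% lower in OEC Lp against OEC Ep. In TEG3 3.7% of all genes were called lower against OEC Ep and 1.02% lower against OEC Lp. The fitted folds of Postn, Omd, Mmp3, Prrx1, Tgfb3, Cd44 and Mmp2 include signals at the floor. The list medians in OEC Lp against OEC Ep were -0.34 for maturation, 0.04 for fibril partners, -0.97 for receptors, -1.12 for proteases and 0.15 for regulators, beside 0.11 over all genes. In TEG3 they were -0.44, -0.36, -0.87, -1.35 and 0.32 against OEC Ep, beside 0.04 over all genes, and -0.19, -0.73, 0.10, -0.34 and 0.44 against OEC Lp, beside -0.01.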

How the data were processed

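Total RNA of 6 samples was measured, 3 populations on 1 U34A and 1 RAE2.0 array each. Per the labels, the deposited signal intensity values were made by the authors with MAS5, using Microarray Suite version 5.0, with a filter on probe sets whose setting is not given in the sources used here. The tables hold whole numbers with no detection calls. The steps here were: scaling to one 2% trimmed mean per array type, a floor at the 40th percentile, omission of control probe sets (59 and 57), and a filter keeping probe sets above the floor on at least 1 of 3 arrays (6360 and 22185). Probe sets with a single symbol in the platform annotation were used (7006 and 20826), which left out 308 and 436 with several symbols and 1426 and 9780 without one. Entrez identifiers were looked up in the RefSeq table of GRCr8, which changed 0 symbols. Probe sets of a gene were averaged on the log2 scale.

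With limma 3.58.1 (R 4.3.3), the 3131 genes measured on both types were fitted over all 6 arrays, with terms for population and array type, the latter being the replicate block (2 residual and 3.56 prior degrees of freedom). Benjamini-Hochberg adjustment ran over all of them. The fit was tested on simulated data. Col28a1, Col6a4 and P3h2 were not analysed here. The genes, lists and rule were chosen with earlier results of these data known. Named with full values were genes that passed in any comparison, Col1a1, Col1a2, Col3a1, Col4a1, Col4a2, Col5a1, Col5a2, Col6a1, Col6a2, Col6a3, Lox, Plod1, Plod2, P4ha1, Pcolce, Serpinh1 and Bmp1 whatever their result, genes on RAE2.0 alone at least 4-fold apart, and 2 to 4 genes per pathway list, those with the lowest p over the comparisons. Alternatives were quantile normalization, other floors and filters, the brightest probe set, fewer arrays and no block. Promoter sequences are from RefSeq, GRCr8. The number of arrays limits the precision.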

Additional observations from a re-analysis of the deposited data

How the results depend on the processing

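Quantile normalization kept all 10 calls of collagen and processing genes, the brightest probe set kept all but Lox in TEG3 against OEC Ep, and requiring signals above the floor on all 3 arrays kept the 9 that could be tested. Their direction held in every alternative run. In the order OEC Lp over OEC Ep, TEG3 over OEC Ep, TEG3 over OEC Lp, with 5, 4 and 1 calls as reported, the counts among these genes were 3, 1 and 0 with the floor at the 20th percentile, and 0, 0 and 0 without a floor, without the filter on dim probe sets, with the 4 arrays of the populations compared and when the array type was no longer a replicate block. By limma, unadjusted p-values under 0.05 then numbered 9, 9 and 5 without a floor, 7, 10 and 6 without the filter, 10, 9 and 6 with 4 arrays and 3, 5 and 3 without the block. With genes above the floor on all 3 arrays the last count was 3. Over all genes, 192, 136 and 38 calls became 66, 11 and 0 without a floor, 77 and 86 in the first 2 with genes above the floor on all arrays, 1, 1 and 0 without the filter, 41, 0 and 0 with 4 arrays, and 0, 0 and 0 without the block; the floor at the 20th percentile gave 4 in the last. Leaving out 1 array gave 0 calls among these genes each time, and 0 to 41, 0 and 0 over all genes, on the assumption that a lone array varies as the rest do. Why calls were lost was not tested. Counts of genes at least 2-fold apart on RAE2.0 stayed within 1.5 times.

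For values that did not pass as reported, runs that left out 1 array aside, 7 alternative runs passed. A further 378 did not pass and kept their direction, and 4 turned. Directions turned only for values that did not pass. Serpinh1 in OEC Lp against OEC Ep was -0.00585 with the brightest probe set, and Col12a1 in TEG3 against OEC Lp was 0.0227 with quantile normalization, 0.12 above the floor on all arrays and 0.38 with the brightest probe set. Leaving out 1 array, log2 folds in OEC Lp against OEC Ep ran from -0.81 to 1.84 for Col1a2, -0.21 to 1.61 for Col26a1, -1.12 to 2.35 for Col8a1, -0.41 to 0.45 for P4ha1, -0.39 to 0.27 for Plod2 and -0.0252 to 0.19 for Serpinh1. In TEG3 against OEC Ep they ran from -0.0584 to 0.79 for Col15a1, -0.72 to 0.98 for Col26a1, -0.00284 to 0.39 for Col3a1, -0.14 to 1.19 for Col4a5, -2.01 to 0.67 for Col8a1 and -0.36 to 0.21 for Plod3. In TEG3 against OEC Lp they ran from -0.54 to 0.38 for Col12a1, -0.26 to 0.89 for Col1a1, -1.48 to 0.34 for Col26a1, -0.26 to 1.14 for Col5a1, -3.02 to 0.45 for Col8a1, -0.74 to 0.38 for Lox and -1.47 to 0.62 for Pcolce. Signals at the floor have no order, which limits Col1a2, Col14a1, Col7a1, Col9a3 and Col27a1 to bounds in the populations at the floor.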
